A study of Mus musculus with 2 samples.

Results

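The 10 genes described here encode G1 cyclins, the kinases they activate and the inhibitors of those kinases, and they were chosen by name, namely Ccnd1, Ccnd2, Ccnd3, Ccne1, Ccne2, Cdk4, Cdk6, Cdkn1a, Cdkn1b and Cdkn2c. All 10 were found among the 20938 genes listed. RNA-seq was performed on Treg cells isolated from the spleen on day 7 after islet transplantation, and each genotype, Foxp3-Mettl14f/+ cKO and littermate control, gave 1 library. The methods give the genotype of the littermate controls as Mettl14f/f. In the cKO mice a floxed Mettl14 allele is removed by Cre recombinase driven by the Foxp3 promoter while the other allele stays intact, so the model is heterozygous and restricted to cells that express Foxp3. Per the methods, all recipients were on the C57BL/6J background, were made diabetic with streptozotocin and received BALB/c islets under the kidney capsule. The study describes the mice used for RNA-seq as not treated with the anti-CD45RB and anti-CD40L antibodies. The sample labels call the control wild type and give the genotype of the other library as a Foxp3 knockdown, whereas the study's design text gives Foxp3-Mettl14f/+ cKO, which is used here. How many animals went into a library and their age are not given in the sources used here.

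In G1, mitogen signals raise the D-type cyclins, which bind CDK4 and CDK6, and the resulting kinases phosphorylate the retinoblastoma protein RB and its relatives. This frees E2F transcription factors, which switch on the E-type cyclins and the genes of DNA replication, and cyclin E with CDK2 then drives entry into S phase. The inhibitor p18, the product of Cdkn2c, binds CDK4 and CDK6 alone, whereas p21 from Cdkn1a and p27 from Cdkn1b bind cyclin-CDK complexes and block CDK2 above all. In T cells p27 is high at rest and is lost on stimulation, cyclin D2 and cyclin D3 are the main D-type cyclins, and p21 is a direct target of p53.

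The deposited values were whole reads divided by 1 factor per library, and dividing by the value of 1 read recovered 20239325 reads for the control and 18327535 for the cKO. In what follows a level is the deposited value, and the log2 fold change compares cKO with control after adding 1 to both levels. Replicate error cannot be estimated from single libraries, so none of the differences has been checked against it. Each 95% interval (Clopper-Pearson, exact) covers counting error alone, and the reads carry no molecular identifiers, so they may not be independent molecules. Mettl14 itself, on chromosome 3 from 123368297 to 123386108, had 948 and 652 reads. Its log2 fold change was -0.31 (-0.45 to -0.16), which became -0.07 with 16 T cell core markers set equal and 0.33 with 20 S phase genes set equal, so whether it was lower in the cKO library depended on the scaling. Foxp3 had 1547 and 1361 reads and a log2 fold change of 0.05 (-0.06 to 0.15), so the marker that defines Treg cells was present in both libraries, as were Il2ra and Ctla4. Markers of other cell types were also found and differed between the libraries, and their values are given with the scalings. Of the marker lists, only that of granulocytes held more reads than the T cell core markers. Its share was 1.28% of the control and 1.63% of the cKO reads, against 0.40% and 0.30% for the T cell core markers.

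In the G1 set 5 of 10 genes lay past 1.5-fold on the lower side in the cKO library, and 1 lay past it on the higher side. The lower genes were Ccne2, Cdk4, Cdk6, Cdkn2c and Ccne1, and the higher gene was Cdkn1a. Among the 16659 genes whose mean level reached 1, 24.2% lay past 1.5-fold on the lower side and 17.2% on the higher side. Many of those lower genes had few reads, and every one of the 10 genes had a mean level above 100. Among the 10693 genes at or above that mean, the shares were 8.71% lower and 11.9% higher. The median log2 fold change was -0.48 for the 10 genes, -0.04 for all genes compared and 0.02 for those whose mean level reached 100.

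The reads of the 2 libraries were also compared by a two-sided exact binomial test with Benjamini-Hochberg adjustment, which compares these libraries and not the genotypes. At an adjusted p under 0.1 and 1.5-fold it called the same 5 genes lower, in a background of 17.5% of 14863 genes, and Cdkn1a higher, in a background of 14.8%. How many calls would remain with a spread between animals can only be assumed. When a biological coefficient of variation of 0.2 was assumed, edgeR's exact test called Ccne2 lower (background 9.75%) and 0 of the 10 genes higher (background 6.45%). With 0.4 it called 0 of the 10 genes lower and 0 higher, against 3.83% and 1.57% of all genes, and 0 of the 10 genes reached an unadjusted p under 0.05, against 11.2% of all genes.

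**Figure D1:**
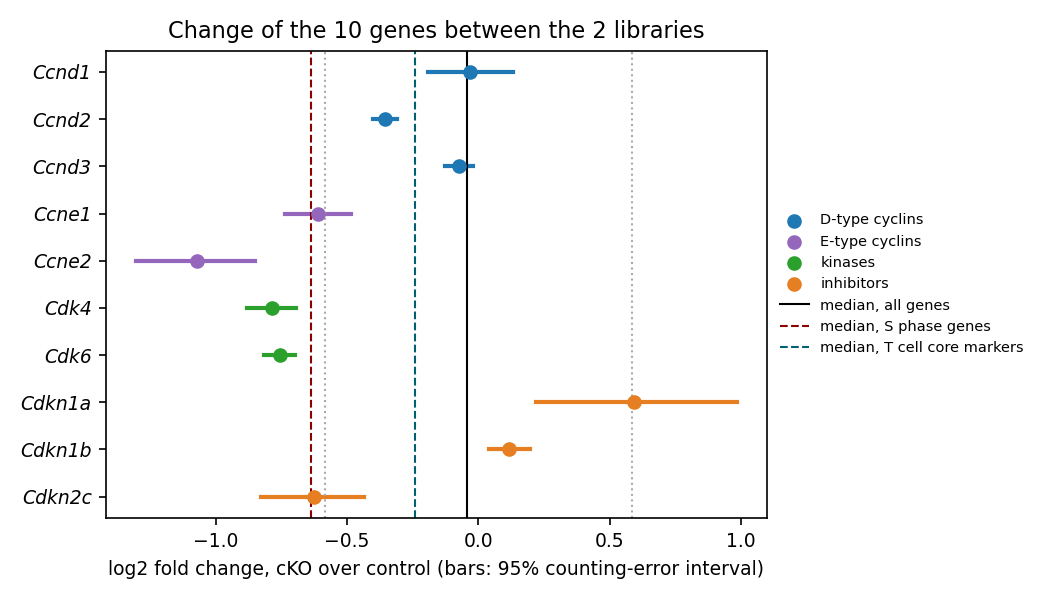
Change of the 10 genes between the 2 libraries, with the log2 fold change of the cKO over the control library on the x axis. Points are the values and bars the 95% counting-error intervals; dotted lines mark 1.5-fold, and vertical lines the medians of all genes (-0.04), of 20 S phase genes (-0.64) and of 16 T cell core markers (-0.24). Ccne2 lies farthest to the left at -1.07 and Cdkn1a farthest to the right at 0.59.

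Levels of different genes were compared as RPKM, that is, reads per kb of exon scaled to the total reads of the library, with the exons of all transcripts of a gene joined. In the control library Ccnd2 was the most abundant of the 10 genes at an RPKM of 49.8, followed by Cdk4 at 43.6, Ccnd3 at 34.7 and Cdkn1b at 31.6. Ccne1 at 26.7 and Cdk6 at 25.2 came next, with overlapping counting intervals. Cdkn2c at 11.2 stood above Ccne2 at 7.97 and Ccnd1 at 7.28, whose intervals overlapped, and Cdkn1a was lowest at 1.45. In the cKO library Ccnd2 was still the most abundant at 36.6 and Cdkn1a still the least at 2.06. Cdkn1b moved from the fourth place to the second at 32.2, level with Ccnd3 at 31.0 within counting error, and Cdk4 moved from the second place to the fourth at 23.8. The middle and lower genes were otherwise, in order, Ccne1 at 16.4 and Cdk6 at 14.0. Next came Cdkn2c at 6.78 and Ccnd1 at 6.70, whose intervals overlapped, and then Ccne2 at 3.56. These places depend on the length used: with the longest transcript of each gene, Ccnd3 stood first in both libraries, with an RPKM of 79.0 and 70.5, Cdk4 was the third in both, Cdkn1b was the fifth in the control and the fourth in the cKO library, and 5 genes of the control and 4 of the cKO library kept their place.

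**Figure D2:**
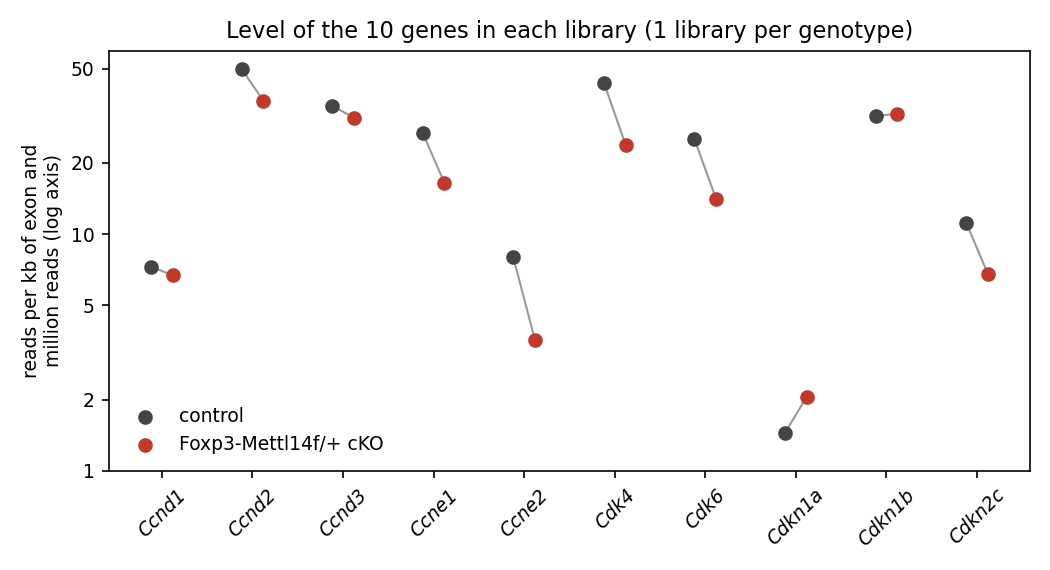
Level of the 10 genes in the control library (grey) and the cKO library (red), in RPKM on a log axis, with 1 point per library. The points span from 1.45 for Cdkn1a to 49.8 for Ccnd2 in the control library.

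The D-type cyclins all lay within 1.5-fold with the levels as deposited, although Ccnd1 passed it on the higher side, at 0.61, with the 20 S phase genes set equal. The median of all genes compared was 0.59 with that scaling. Ccnd1, on chromosome 7 of GRCm38 from 144929931 to 144939925, had 694 reads in the control and 578 in the cKO, at levels of 671 and 657. The cKO value was 0.979 of the control value and the log2 fold change -0.03, with an interval of -0.19 to 0.13, so no difference was detectable at this depth. Cyclin D1 is the D-type cyclin of many non-lymphoid tissues, and it was the least abundant of the 3 here. Ccnd2, which encodes the cyclin induced early after lymphocyte stimulation, lies on chromosome 6 from 127125162 to 127152193 and had levels of 9174 and 7168 from 9483 and 6303 reads. Its log2 fold change of -0.36 (-0.40 to -0.31) lay below that of Ccnd1 and Ccnd3 and under the 1.5-fold threshold. Ccnd3, on chromosome 17 from 47505051 to 47599691, encodes the cyclin needed for the expansion of immature T cells and had levels of 5969 and 5672 from 6170 and 4988 reads, which gives -0.07 (-0.13 to -0.02) on the log2 scale. Of the summed level per length of these cyclins, Ccnd2 held 54.2% in the control and 49.2% in the cKO library, Ccnd3 37.8% and 41.8%, and Ccnd1 7.93% and 9.02%.

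Both E-type cyclins were lower in the cKO library, except that Ccne1 stood at 0.03 with the S phase genes set equal, and with the levels as deposited Ccne2 had the largest difference of the 10 genes. Ccne1, on chromosome 7 from 38097984 to 38107534, had levels of 1391 and 912 from 1438 and 802 reads. Its log2 fold change was -0.61, just past 1.5-fold, which is 0.585 on this scale, and the interval of -0.74 to -0.48 spans the threshold. Ccne2, on chromosome 4 from 11191351 to 11204779, had levels of 546 and 259 from 564 and 228 reads. The cKO level was 0.476 of the control level, a log2 fold change of -1.07 (-1.30 to -0.85), and the whole interval lay past 1.5-fold. Of the genes with a mean level of 100 or more, 1.92% had a lower value. Both genes are classical targets of E2F, whose products with CDK2 carry cells past the G1/S boundary.

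Cdk4 and Cdk6, the kinases that partner the D-type cyclins, were lower in the cKO library by almost the same factor, and their values stayed below 0 under each scaling tried. Cdk4 lies on chromosome 10 from 127063534 to 127067920 and had levels of 2776 and 1610 from 2870 and 1416 reads. This is -0.79 on the log2 scale (-0.88 to -0.69). For Cdk6, on chromosome 5 from 3341485 to 3531008, the levels were 6901 and 4087 from 7134 and 3594 reads, and the log2 fold change was -0.76 (-0.81 to -0.70). Both intervals lay wholly past 1.5-fold. Of the genes with a mean level of 100 or more, 4.60% had a lower value than Cdk4 and 5.09% a lower value than Cdk6.

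Cdk4 is known as a target of MYC, which binds the E-box CACGTG. Of the 10 genes 7 had a promoter entry in RefSeq (GRCm38.p6), and Ccnd1, Ccnd2 and Ccne2 had none. Searched on both strands of the 250 bases before and 50 bases after a start, CACGTG was found 4 times in the Cdk4 entry and 1 time each in the Cdk6 entry and in the second Cdkn2c entry, against 7.15% of 32851 promoters with at least 1 match. CACGTG reads the same on both strands, so each place was counted 1 time. The E2F words TTTCCCGC, TTTCGCGC, TTTGCCGC and TTTGGCGC were found in 2.27% of all promoters and in 0 of the entries of these 7 genes, which says only that these letters are not in these windows, so no E2F word overlapped an E-box there. The entries with a match before the start were those of Cdk4 and Cdk6, and these upstream parts are shown with CACGTG in capitals. They lie on the plus strand, at chr10:127063343-127063534 for Cdk4 and chr5:3343653-3343698 for Cdk6.
Cdk4: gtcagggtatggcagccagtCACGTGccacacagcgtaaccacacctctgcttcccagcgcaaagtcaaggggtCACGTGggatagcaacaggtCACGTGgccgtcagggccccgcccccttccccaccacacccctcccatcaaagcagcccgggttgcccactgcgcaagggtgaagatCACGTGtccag
Cdk6: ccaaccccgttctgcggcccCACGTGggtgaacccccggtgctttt
A match is a description of the sequence and not a site of binding, and the part of these matches in the differences was not tested. The gene for MYC itself had 2642 and 2716 reads and a log2 fold change of 0.27 (0.20 to 0.35), under 1.5-fold, and Mycn had 97 and 25 reads and a value of -1.69 (-2.42 to -1.08).

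The 3 inhibitors did not share a direction with the levels as deposited, although all had values above 0 with the S phase genes set equal. Cdkn1a, on chromosome 17 from 29090976 to 29100727, had levels of 101 and 152 from 104 and 134 reads, with a log2 value of 0.59 (0.22 to 0.98). This was 1.51-fold and so barely past the threshold, which its wide interval spans. When scaled by median-of-ratios or TMM it was 0.579 and 0.571, and with library totals 0.505, each just under 1.5-fold. Cdkn1b, on chromosome 6 from 134920401 to 134925513, had levels of 2812 and 3053 from 2907 and 2685 reads, and its log2 fold change of 0.12 (0.04 to 0.19) lay well under 1.5-fold. It was the most abundant inhibitor in both libraries, with 71.4% and 78.4% of the summed level per length of the 3 genes. Cdkn2c, on chromosome 4 from 109660876 to 109667189, had levels of 587 and 380 from 607 and 334 reads, and its log2 fold change was -0.63 (-0.83 to -0.43). It thus lay beside Ccne1 just past the threshold, on the side of the kinases that it inhibits and not on that of the other two inhibitors.

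Ratios of the reads of these genes within a library do not depend on how the libraries are scaled, and 9 of them were compared between the libraries with exact conditional intervals, counting error only. Reads on the 3 inhibitors for each read on Cdk4 and Cdk6 numbered 0.362 in the control and 0.629 in the cKO library, a ratio of 1.74 (95% interval 1.64 to 1.85). This was the largest shift of the 9 in that direction. Most of the inhibitor reads were on Cdkn1b, 2907 of 3618 in the control and 2685 of 3153 in the cKO library. Against the 5 cyclins the inhibitors shifted less, from 0.197 to 0.244, a ratio of 1.24 (1.18 to 1.31). Within the inhibitors, Cdkn2c for each read of Cdkn1b went from 0.209 to 0.124 (ratio 0.596, 0.514 to 0.689), and Cdkn1a for each read of Cdkn1b from 0.0358 to 0.0499 (ratio 1.39, 1.07 to 1.83). The inhibitor RNA of the cKO library was therefore made up of more Cdkn1a and less Cdkn2c relative to Cdkn1b.

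Among the cyclins, the D-type genes had 8.17 reads for each read on the E-type genes in the control and 11.5 in the cKO library, a ratio of 1.41 (1.30 to 1.53). Ccne2 for each read of Ccne1 went from 0.392 to 0.284 (ratio 0.725, 0.605 to 0.867). Ccnd2 for each read of Ccnd3 went from 1.54 to 1.26 (ratio 0.822, 0.783 to 0.864), and Ccnd1 for each read of Ccnd2 from 0.0732 to 0.0917 (ratio 1.25, 1.11 to 1.41). The exception was Cdk6 to Cdk4, at 2.49 and 2.54, with a ratio of 1.02 (0.947 to 1.10) whose interval includes 1. In these libraries the ratios between and within the classes of cyclins and inhibitors thus differed beyond counting error. Between the kinases no shift was detectable at this depth. The part of replicate spread and of cell types in these ratios was not tested.

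**Figure D3:**
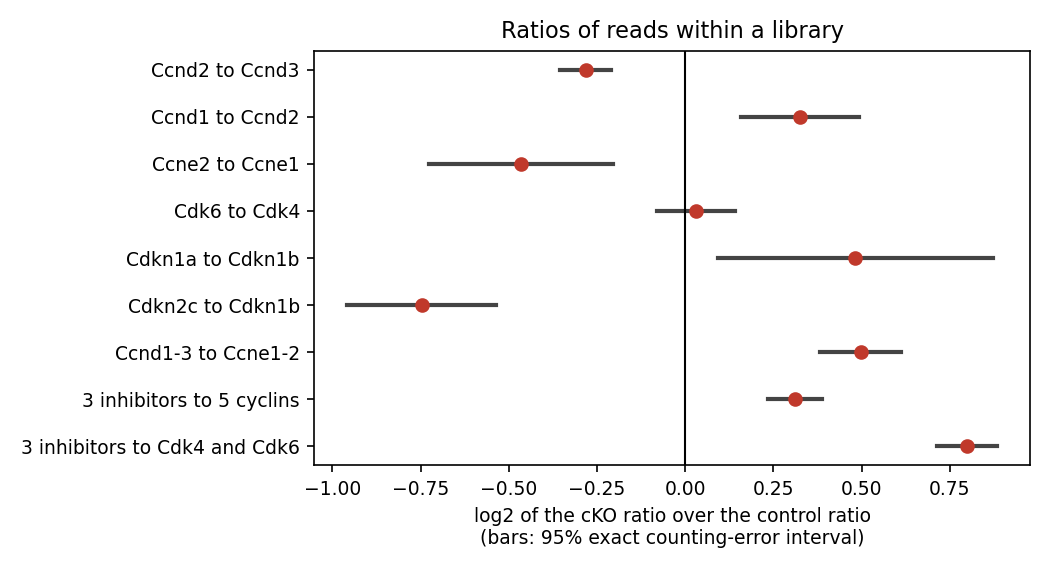
Ratio of reads between genes of the set within a library, as the log2 of the cKO ratio over the control ratio; bars are 95% exact counting-error intervals, and the vertical line marks no difference. The inhibitors against Cdk4 and Cdk6 lie farthest to the right at 0.80, Cdkn2c against Cdkn1b farthest to the left at -0.75, and Cdk6 against Cdk4 at 0.03.

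The other genes of the G1/S pathway were taken from 8 lists of known partners, regulators and targets with 111 genes found, of which 8 lay past 1.5-fold on the higher side and 39 on the lower side. Beside each list stand the shares over all genes compared, 17.2% higher and 24.2% lower. At a mean level of at least 100 those shares were 11.9% and 8.71%. Genes of DNA replication, which E2F switches on, had a median log2 fold change of -0.64, and 14 of 20 lay past 1.5-fold on the lower side and 0 on the higher side. The replication helicase subunit gene Gins2 was lowest at -1.16 (-1.45 to -0.89), and the licensing factor gene Cdt1 was nearest to 0 at -0.35. Of 20 mitosis genes 12 lay past 1.5-fold on the lower side and 0 on the higher side, with a median of -0.60 that turned to 0.04 when the S phase genes were set equal. The ubiquitin-conjugating enzyme gene Ube2c was lowest at -0.81 and the kinesin gene Kif23 nearest to 0 at -0.15. Mki67, the proliferation marker, had 44887 and 25205 reads and a value of -0.60 (-0.62 to -0.58). Ccne1 and Cdkn2c were thus within counting error of the S phase median, since their differences from it were 0.03 (-0.10 to 0.15) and 0.01 (-0.19 to 0.20). Cdk4 at -0.15 and Cdk6 at -0.12 lay a little below that median, Ccne2 lay further below it at -0.43 (-0.66 to -0.21), and the D-type cyclins, Cdkn1b and Cdkn1a lay above it by 0.28 to 1.23.

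Most partners later in the cycle had values below 0 with the levels as deposited. Of 13 later cyclins, kinases and their phosphatases 4 lay past 1.5-fold on the lower side and 0 on the higher side, with a median of -0.48 that turned to 0.16 when the S phase genes were set equal. They were Ccna2 at -0.75, Cdk1 at -0.83, Wee1 at -0.86 and Cdc25c. The lowest was Cdc25c, which encodes a phosphatase that activates CDK1, with 254 and 60 reads and a value of -1.83 (-2.28 to -1.44). Values above 0 were those of Cdc25b at 0.32 and of Cdk2, the kinase partner of cyclin E, at 0.43 (0.31 to 0.55) from 1060 and 1217 reads, both under 1.5-fold. Transcripts of both E-type cyclins and of their kinase thus lay on opposite sides of 0, except for Ccne1 with the S phase genes set equal. Of 13 pocket protein and E2F genes 1 lay past 1.5-fold on the higher side and 3 on the lower side, against 17.2% and 24.2% of all genes compared. Their median of -0.19 turned to 0.05 with the T cell core markers set equal. Rb1, which encodes the main substrate of CDK4 and CDK6, had 3003 and 2597 reads and a value of 0.02 (-0.05 to 0.10). E2f2, an activating E2F, was 2.06-fold higher, with 1229 and 2150 reads, while the other activating members E2f1 and E2f3 had values of -0.12 and -0.19. The lower genes were E2f5 at -0.89 from 190 and 87 reads, E2f8 at -0.68 and E2f6 at -0.67, which encode repressive members. The repressive members E2f4 at -0.38 and E2f7 at -0.29 lay within 1.5-fold.

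The 5 other CDK inhibitor genes had a median of -1.57, also with Cdkn2a set at a floor of 3 reads in the cKO library. However, the 3 lower genes, Cdkn1c, Cdkn2a and Cdkn2b, had few reads. The median was -0.64 at a minimum mean level of 10 or among genes above 0 in both libraries, and the summed level of the 5 genes was 1012 for the control and 1174 for the cKO, so it went the other way. Cdkn2d, which encodes the p19 relative of p18, had 796 and 824 reads and a value of 0.28 (0.14 to 0.43), in contrast to Cdkn2c at -0.63. Cdkn3, a phosphatase gene that acts on CDK2, had a value of 0.40 (0.10 to 0.71). Cdkn1c had 23 and 6 reads, and Cdkn2b had 39 and 6. Cdkn2a had 14 and 0 reads, and the upper end of its interval was -1.50 on the log2 scale. Against a floor of 3 reads in the cKO library its level was 3.97-fold lower, without the counting error of the 14 control reads. Among 11 genes of the ubiquitin ligases that degrade G1 regulators, the median was -0.05, with 1 gene higher and 1 lower. Cks1b, the cofactor of SKP2 in the degradation of p27, had a value of -0.66 (-0.86 to -0.46), and Fbxo4, an F-box gene linked to cyclin D1 turnover, a value of 0.78 (0.51 to 1.06).

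Upstream of the set, 9 transcription factor genes had a median of -0.01, with 1 higher and 1 lower. Klf2, a quiescence factor of T cells, was 1.79-fold higher, with 4880 and 7415 reads, and Mycn was the lower gene. Of 20 p53 targets 5 lay past 1.5-fold on the higher side and 1, Eda2r with 8 and 0 reads, on the lower side, with a median of 0.12. Over all genes compared the shares were 17.2% higher and 24.2% lower. The other 14 lay within 1.5-fold. The highest was Plk2, a stress-responsive kinase gene, at 1.64 (1.33 to 1.98) from 112 and 299 reads, followed by the death genes Bbc3 at 1.52 and Pmaip1 at 1.25 and by Sesn1 at 0.69 and Btg2 at 0.65. Ccng1 at -0.34 and Mdm2 at -0.14, which p53 also induces, had values below 0, and Trp53 itself had a value of -0.09.

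**Figure D4:**
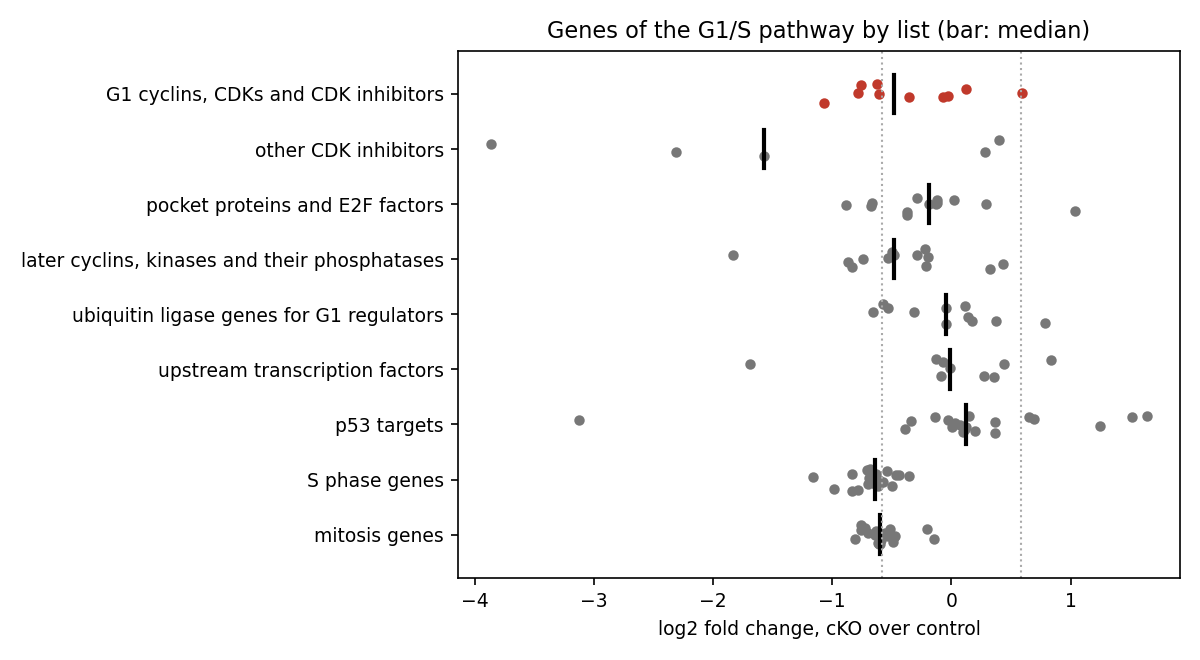
Log2 fold change of the cKO over the control library for each gene of the G1 set (red) and of 8 pathway lists (grey), 1 point per gene whose mean level reached 1; black bars are medians and dotted lines mark 1.5-fold. With the levels as deposited, the S phase and mitosis genes lie below 0, with medians of -0.64 and -0.60, and the G1 set spreads from -1.07 to 0.59.

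How the libraries are scaled against each other decides where the set lies. With the 16 T cell core markers set equal, which moves the median of all genes by 0.24, the median of the 10 genes was -0.24, and Ccne2 at -0.83 was the gene still 1.5-fold lower while Cdkn1a at 0.83 was 1.5-fold higher. Ccnd1 and Ccnd3 then lay above 0, at 0.21 and 0.17. Of the 16659 genes compared, 4198 were then at least 1.5-fold higher and 3336 lower, and their median was 0.20. Of all genes past 1.5-fold, the share on the higher side was 41.6% as deposited and 55.7% with this scaling. With the 20 S phase genes set equal, which moves the median of all genes by 0.63, the median of the 10 genes turned to 0.16. Of the 10 genes 3, Ccnd1, Cdkn1a and Cdkn1b, were at least 1.5-fold higher and 0 lower. Over the 16659 genes compared, 8386 were higher and 2759 lower with this scaling, and their median was 0.59. Ccne2 at -0.43, Cdk4 at -0.15 and Cdk6 at -0.12 stayed below 0, whereas Ccne1 at 0.03 and Cdkn2c at 0.01 turned positive. Values under these scalings are relative to the genes set equal, and the shift of all genes was not taken out of them.

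**Figure D5:**
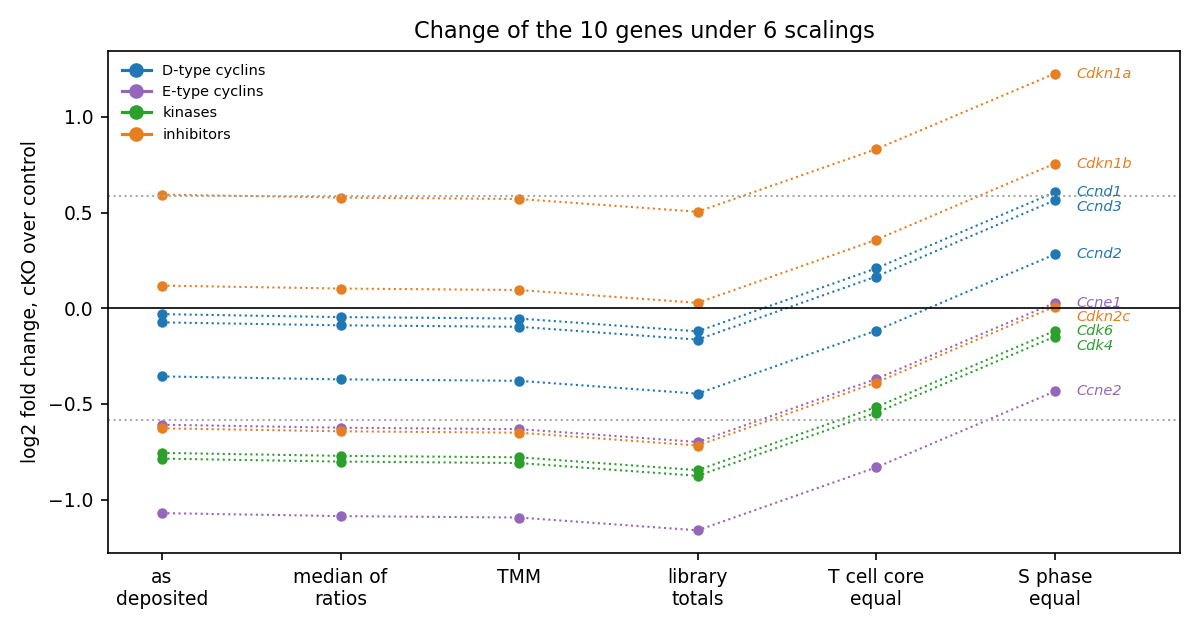
Log2 fold change of each gene, cKO over control, with the levels as deposited and under 5 other scalings; horizontal dotted lines mark 1.5-fold, and the lines between points only join the values of 1 gene. Each scaling changes all genes by 1 factor, so the order of the genes is the same by construction. Ccne2 lies below 0 under all 6, from -1.16 with library totals to -0.43 with the S phase genes set equal.

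Markers of several cell types differed between these libraries as well, and fewer cells of a type and less RNA per cell cannot be told apart in bulk RNA. Of 16 T cell core markers 2, Cd3g and Cd4, lay past 1.5-fold on the lower side and 0 on the higher side, with a summed level of 77897 in the control and 63520 in the cKO library. Of 12 Treg markers Il2ra and Lrrc32 were higher and Ikzf4 and Tnfrsf4 lower, with summed levels of 10577 and 11579. Of 17 erythroid markers 16 lay past 1.5-fold on the lower side, with summed levels of 64498 and 27270, in the same direction as the kinases and E-type cyclins. The other way went 12 of 12 B cell markers, with summed levels of 8759 and 47914, 15 of 15 macrophage markers, with 27755 and 59429, and 7 of 11 CD8 T and NK cell markers, with 6560 and 12650. Granulocyte markers summed to 250516 and 340478, with Ngp and Camp of 13 higher and Mpo, Prtn3 and Ctsg lower. Plasma cell markers summed to 43609 and 46379, with Mzb1 and Tnfrsf17 of 7 higher, and the 8 stromal and endothelial markers to 2677 and 3681, with Col1a2 and Cxcl12 higher and Cdh5 and Pdgfrb lower. At 0 were Marco and Col1a2 in the control and Col3a1 and Dcn in both. The 10 genes of the set are expressed by dividing cells of many types, and the part of these cell types in their values was not tested.

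Reads of an overlapping gene on the other strand could enter some of these values, since the sources used here do not state whether the counting used strand. In GENCODE vM21, 7 of the 10 genes share exonic bases with a gene on the opposite strand, and Ccne1, Cdkn1b and Cdkn2c share none. Cdk4 shares 641 bases with Tspan31, which had 860 and 544 reads. Ccne2 shares 609 bases with Ints8 at 1917 and 1345 reads, Ccnd3 shares 361 with Bysl at 1283 and 726, and Ccnd1 shares 1100 with LTO1 at 459 and 569. For Ccne2, the gene with the largest difference, the overlapping gene had more reads than Ccne2 itself in both libraries.

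METTL14 is the RNA-binding subunit of the m6A writer, which favours GGACU in RNA, so the coding transcripts were searched for GGACT, as these letters are written in DNA. In the longest coding transcript of each of 16276 genes the median was 1.04 matches per kb, with quartiles at 0.63 and 1.52, and 91.7% of transcripts held at least 1. Cdkn1a was the densest of the 10 genes at 1.92 per kb, and Cdk4 had 0 matches in 2053 bases. Ccne1 had 1.50 per kb, Ccnd3 1.42 and Cdkn2c 1.21, above the median of all genes. Ccnd2 at 0.95, Ccnd1 at 0.80, Cdk6 at 0.78, Ccne2 at 0.67 and Cdkn1b at 0.66 lay below that median. The genes lower in the cKO library lay on both sides of that median, with Ccne1 and Cdkn2c above it and Ccne2, Cdk4 and Cdk6 below it, and m6A itself was not measured in these libraries.

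The matches of the genes with the highest and the lowest log2 fold change are shown, with the match closest to the stop codon of Cdkn1b, the most abundant inhibitor. GGACT is in capitals with 10 bases on either side, and all of these matches lie in the 3′ UTR. Distances are counted from the first base of the stop codon to the first base of the match. For Cdkn1a, on the plus strand, the matches lie at 458, 541, 780 and 1168 bases, at chr17:29099839-29099863, chr17:29099922-29099946, chr17:29100161-29100185 and chr17:29100549-29100573. For Ccne2, on the plus strand, they lie at 402 and 940 bases, at chr4:11203488-11203512 and chr4:11204026-11204050. For Cdkn1b, also on the plus strand, the match lies at 85 bases, at chr6:134922147-134922171.
Cdkn1a match 1: aaaatgagtaGGACTttggggtctc
Cdkn1a match 2: atggcagttaGGACTcaaccgtaat
Cdkn1a match 3: acagctcagtGGACTggaagggaat
Cdkn1a match 4: atcctggtctGGACTgtctaccctt
Ccne2 match 1: attggaatatGGACTaaactagtgc
Ccne2 match 2: tatgagatgaGGACTgtgtcaacat
Cdkn1b match: gcagaccccaGGACTgctggcagat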

How the data were processed

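The authors deposited 1 value per gene for each of 2 libraries. Per the methods, reads were aligned to mm10 with TopHat, while the submitters' processing notes name bcl2fastq 2.0, STAR, StringTie and DESeq2; the counting tool, annotation and strand setting are not given in the sources used here. The deposited values are a signal, namely read counts divided by 1 factor per library, since 100% were whole multiples of the smallest value within 0.001. From these the reads, log2 fold changes with a pseudocount of 1, exact intervals and within-library ratios were computed. Genes were compared at a mean level of at least 1 and called at 1.5-fold, the threshold of the methods; the methods' threshold of 0.1 was read as an adjusted p. No replicate test was possible with 1 library per genotype. The binomial test and edgeR's exact test used genes with at least 10 reads in total, and were tested on simulated data, edgeR's with an assumed coefficient of variation of 0.2.

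The members and lists were chosen with earlier results of these data known. Named are the 10 genes, Mettl14, Foxp3, Cdk2, Rb1, Cdkn2d, Mki67, all other CDK inhibitors, and the highest and lowest gene with at least 100 reads of each pathway list; the other genes named were chosen after their values were seen. Coordinates and lengths are from GENCODE vM21 (GRCm38), which matched 20490 of 20938 symbols. Python 3.11.15, numpy 2.4.6, scipy 1.17.1, pandas 2.3.3, matplotlib 3.10.9, R 4.3.3 and edgeR 4.0.16 were used. Alternatives were other pseudocounts, filters, scalings, thresholds and lengths.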

Additional observations from a re-analysis of the deposited data

How the results depend on the processing

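No paired analysis was possible because the genotypes were not replicated, and for the same reason no library could be left out. The minimum mean level of 100 and the scaling by library totals were chosen after seeing the data. Of the 10 genes, 1 was higher and 5 lower as reported, and 0 were higher with a pseudocount of 5, with the median-of-ratios, TMM or library total scaling, or at 2-fold, where 1 was lower. With the T cell core markers set equal 1 was lower, and with the S phase genes set equal 3 were higher and 0 lower. With an assumed coefficient of variation of 0.2, 0 were higher and 1 lower, and with 0.4, 0 and 0. The median of the 10 genes was -0.57 with library totals, -0.24 with the T cell core markers equal and 0.16 with the S phase genes equal, where the median of the mitosis genes turned to 0.0409, Ccne1 to 0.0288 and Cdkn2c to 0.00932. Over all genes, 2864 of the 16659 compared were higher and 4028 lower as reported. Of the same 16659, the numbers higher were 2659 with a pseudocount of 5 and 2797 with median-of-ratios scaling. They were 2768 with TMM and 2518 with library totals. The numbers lower were 2035 at a minimum mean of 10, 1904 among genes above 0 in both libraries and 2603 in the binomial test. At a minimum mean of 100, 1275 were higher and 931 lower, and at 2-fold 1722 of 16659 were higher and 3019 lower. With an assumed coefficient of 0.2 the numbers were 958 and 1449, with 0.4 they were 234 and 569, and with the S phase genes equal 8386 were higher. Of the pathway genes 15 were higher and 13 lower with the T cell core markers equal, and 35 and 6 with the S phase genes equal, where 67 cell type markers were higher and 10 lower. With the longest transcript length, 5 and 4 of the 10 genes kept their place by level. The 9 within-library ratios stayed within their counting intervals when taken from levels plus 1, a change that is small at the levels of these genes. The fewest reads, 104 and 134, were on Cdkn1a, whose interval is accordingly the widest of the 10.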
